A study of Callosobruchus maculatus with 24 samples.

Results

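Of the 29812 genes in the deposited gene table for the seed beetle Callosobruchus maculatus, 84 were abundant in the combined head and thorax and scarce in the abdomen of both sexes. They were chosen by level. Each library's counts were scaled to CPM (a gene's count divided by the library's total and multiplied by 1e6), and the median was taken over the 6 libraries of each sex and body part. A gene was kept if its head and thorax median was at least 8 times its abdomen median in females and in males, and if the mean of the female and male head and thorax medians was at least 30 CPM. The 84 genes made up 0.282% of the table and 2.14% of the 3930 genes at that level. All 84 had at least 70 counts in every head and thorax library, so none was close to the counting limit there.

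The study sequenced polyadenylated RNA of virgin and mated beetles of both sexes, from the abdomen and from the head and thorax together. The 24 libraries formed 8 groups of 3 replicates: virgin females, mated females, virgin males and mated males, each as abdomen and as head and thorax. All beetles were of the strain South India, and were frozen before the body was divided. No source used here gives the number of beetles in a library, their age or the time from mating to freezing. Nothing says either whether replicates were separate sets of beetles, so a p-value here reflects the spread among libraries of a group, which may be technical.

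The head of a beetle carries the brain, the compound eyes, the antennae and the mouthparts. The thorax carries the flight and leg muscles, the ganglia of the ventral nerve cord and the wings and legs. The abdomen of an adult holds mainly the gut, the fat body, the excretory tubules and the reproductive organs, which differ most between the sexes. Genes used mainly by muscle, eye or nervous tissue can therefore be abundant in one sample and scarce in the other. The tables give assembly identifiers (such as TR53534|c0_g2) and do not pair them with gene names, so no function or cell type is attached to any gene here, and the tissues could not be checked against markers. In RNA from whole body parts, fewer cells of a type and less RNA per cell cannot be told apart.

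Library totals ran from 7805440 to 10171662 counts, so 1 CPM stood for 7.81 to 10.2 counts. Among the 84 genes, 1 library stood apart: mated male abdomen replicate 1. In it, 14 of the genes with at least 10 counts were at least 3-fold above the median of the other 5 male abdomens and above the highest of them, against 0 to 3 of the genes in any other library compared in the same way with the libraries of its sex and body part. The main values that rest on it are also given without it. Across all genes mated male abdomen replicate 1 did not stand apart. It had 1.96% of genes with at least 10 counts that high, within the 1.39% to 2.06% of the other abdomens. Virgin male head and thorax replicate 1 did stand apart across all genes, with 6.68% of genes at least 3-fold above the other male heads and thoraces. None of the 84 was among them.

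The 84 genes took up a much larger share of the RNA in heads and thoraces, which is what chose them, and in both body parts that share was larger in males. In female heads and thoraces their summed share of all counts was 4.67%, 4.33% and 3.91% in the 3 virgin libraries and 4.35%, 4.35% and 4.07% in the 3 mated ones. In male heads and thoraces it was 6.81%, 7.28% and 6.65% in virgin and 6.75%, 6.94% and 7.14% in mated libraries. Every male library lay above every female one, while virgin and mated libraries of a sex overlapped. In abdomens the share was 0.155% ± 0.0113 (SD, n = 3) in virgin females, 0.176% ± 0.0102 in mated females, 0.468% ± 0.0212 in virgin males and 0.513% ± 0.132 in mated males. The large spread of the last group came with mated male abdomen replicate 1, at 0.665%, while the other 5 male abdomens lay between 0.436% and 0.489%. The mean share in males was 1.62 times that in females in heads and thoraces and 2.96 times in abdomens, or 2.75 times without that library.

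**Figure D1:**
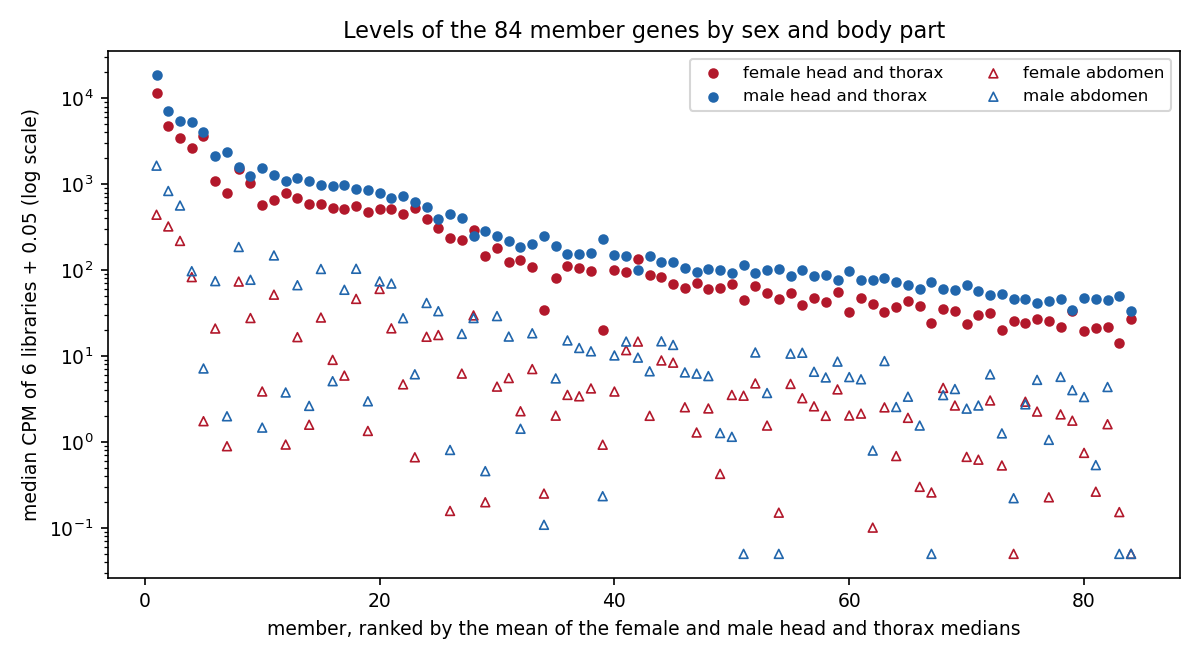
Median CPM of each of the 84 genes over 6 libraries, on a log axis with 0.05 added, in female (red) and male (blue) heads and thoraces (filled circles) and abdomens (open triangles), with the genes ranked by level. The gap between circles and triangles is the criterion that chose the genes; male circles lie above female circles for 82 of 84 genes.

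The levels covered a wide range. By the mean of the sexes' medians, 10 genes were at 1000 CPM or more, 17 between 300 and 1000, 17 between 100 and 300, and 40 between 30 and 100 CPM. CPM is not corrected for transcript length, and no lengths were used here, so these values describe shares of the libraries and not an order of transcript numbers. A single gene, TR53534|c0_g2, held 24.4% to 28.8% of the summed counts of the 84 in heads and thoraces, the first 5 genes held 56.5% to 61.8%, and the first 10 held 70.2% to 72.3%.

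TR53534|c0_g2 reached a median of 11616 CPM in female heads and thoraces (lowest 9549, highest 12333) and 18774 CPM in male ones (16710 to 19851). In abdomens it stood at 441 CPM in females (390 to 530) and 1642 CPM in males (1532 to 2109). The sexes did not overlap in either body part. It was thus still among the well-counted genes of the abdomen, as were TR37622|c0_g2 (median 322 CPM in female and 833 CPM in male abdomens, against 4697 and 7149 CPM in heads and thoraces) and TR42692|c1_g2 (219 and 564 CPM, against 3428 and 5395 CPM). TR23862|c5_g2 had medians of 2604 CPM in female and 5301 CPM in male heads and thoraces, and 82.9 and 97.2 CPM in abdomens. TR19744|c0_g1 had 1075 and 2131 CPM in heads and thoraces and 20.9 and 74.4 CPM in abdomens. TR44291|c4_g1, the fifth by level, was almost confined to heads and thoraces. It had 3593 CPM in females (2946 to 4562) and 4096 CPM in males (3700 to 4850) there, against 1.70 CPM in female abdomens (0.994 to 8.45) and 7.12 CPM in male ones (1.81 to 164). Its highest abdomen value, 164 CPM, was again mated male abdomen replicate 1, and the other 5 male abdomens had a median of 2.57 CPM and were at or below 13.7 CPM.

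The ratio of head and thorax to abdomen, taken in the sex where it was lower, had a median of 16.02. It lay between 8 and 16 for 42 genes, between 16 and 64 for 24, and at 64 or more for 18. Of the genes with a median above 0 in all 4 sets, the highest ratio belonged to TR32548|c0_g1, with 794 CPM in female and 2350 CPM in male heads and thoraces against 0.844 and 1.94 CPM in abdomens, followed by TR58451|c1_g1, with 146 and 287 CPM against 0.149 and 0.409 CPM. That order rests on mated male abdomen replicate 1. Without it the lower ratio was 1591 for TR44291|c4_g1, 1329 for TR58451|c0_g1 and 978 for TR58451|c1_g1 (male abdomen median 0.1099 CPM), all above the 941 of TR32548|c0_g1, while the median over the 84 was 15.9. The ratio was larger in females for 61 genes and larger in males for 22. One gene, TR72625|c0_g1, had an abdomen median of 0 in both sexes: its only abdomen counts were in mated male abdomen replicate 2, at 1.45 CPM. Another 5 had an abdomen median of 0 in 1 sex. Some members share an identifier stem, as TR44291|c4_g1 and TR44291|c1_g2 do, and TR58451|c0_g1 and TR58451|c1_g1, so reads may have been divided between near copies of a sequence.

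Neither limit of the rule fell in a gap. Just inside the level limit stood TR72625|c0_g1 and TR32557|c0_g1, with mean levels of 30.4 and 32.1 CPM, and just outside it TR72450|c2_g1 and TR12231|c0_g1, with 29.96 and 29.3 CPM. Just inside the ratio limit stood TR49928|c0_g1 and TR42679|c1_g1, with lower ratios of 8.002 and 8.09, and just outside it TR9040|c1_g2 and TR24739|c0_g1, with 7.81 and 7.78. With a ratio of at least 4 the rule took in 195 genes and with at least 16 it kept 42. The 84 are therefore the upper end of a continuous range, not a separate class.

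The body part difference itself could be tested only in libraries that had no part in choosing the genes. The same rule applied to the 12 virgin libraries alone chose 82 genes, of which 79 are among the 84. In the 12 mated libraries all 82 were called higher in the head and thorax (edgeR quasi-likelihood test, Benjamini-Hochberg adjusted p below 0.05), where 25.7% of all genes tested were. All 82 were also higher in every mated head and thorax than in every mated abdomen, against 11.6% of genes tested. Their log2 differences ran from 2.85 to 10.53 with a median of 4.55. By size, 75 of the 82 again reached the 8-fold ratio in both sexes, and 71 met the whole rule. The tissue contrast thus held in beetles of the other mating status, with most but not all genes past the same limits.

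Most of the 84 genes were lower in females than in males, in the head and thorax and in the abdomen. The rule asked for a high ratio in each sex and set no direction between them. In heads and thoraces all 84 were tested, and 77 were called lower in females, where 24.4% of all genes tested were (edgeR quasi-likelihood test on female minus male, averaged over virgin and mated beetles). One was called higher in females, where 25.4% of all genes were, and 6 were not called. The median log2 difference over the 84 was -0.80, against -0.02 over all genes tested, and 21 of the genes lower in females differed at least 2-fold, against 12.1% of all genes in either direction. For 69 genes every one of the 6 male libraries lay above every female one, against 12.5% of genes tested. Among the 3846 other genes with a head and thorax level of at least 30 CPM, 65.7% were called in either direction. Of those 3846 genes 40% were called lower in females, and their median was -0.08.

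The largest differences were in TR28685|c0_g1 and TR10887|c0_g1. TR28685|c0_g1 had a lowest, median and highest value of 15.2, 19.9 and 52.7 CPM in female heads and thoraces and of 157, 232 and 282 CPM in male ones. The female libraries were all below the male libraries, with a log2 difference of -3.28 (SE 0.249, edgeR adjusted p = 3.94e-06). TR10887|c0_g1 had 17.3, 34.4 and 79.2 CPM in females and 161, 246 and 316 CPM in males, again without overlap (-2.81, SE 0.230, edgeR adjusted p = 5.96e-06). The exception was TR27841|c0_g1, with 126, 134 and 159 CPM in females against 92.4, 100.4 and 115 CPM in males. All 6 female libraries were above all 6 male ones (0.40, SE 0.0804, edgeR adjusted p = 0.00151). Its call was lost under 1 of 21 alternative settings, where the adjusted p ranged up to 0.0586. Of the 6 genes not called, TR44291|c4_g1 and TR68258|c0_g1 were among the 10 most abundant, with log2 differences of -0.26 (SE 0.128) and -0.15 (SE 0.0703).

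In abdomens 74 of the 84 genes had enough counts to be tested, and the 10 left out never exceeded 13.2 CPM in any abdomen. Of the 74, 65 were called lower in females (edgeR quasi-likelihood test), where 41.3% of all genes tested were, and 2 were called higher, where 39.4% were. The median log2 difference was -1.81, against -0.03 over all genes tested. Of the 3846 other genes with a head and thorax level of at least 30 CPM, 53.1% were called lower in female abdomens, and their median was -0.23. Scaling by library size alone moved the median of all genes to 0.33 and that of the 74 to -1.44. A change of scaling moves all genes by about the same amount. The distance between the 2 medians therefore stays similar under any scaling and is no check on it. Without mated male abdomen replicate 1, 63 were called lower and 3 higher, and over all genes 5999 were called lower and 5766 higher. For 52 of the 74 every male abdomen lay above every female one, against 25.7% of genes tested.

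TR4185|c0_g1 had 4.43, 5.88 and 6.59 CPM (lowest, median and highest of 6) in female abdomens and 56.2, 59.0 and 63.8 CPM in male ones. The ranges lay far apart (log2 difference -3.72, SE 0.0679, edgeR adjusted p = 1.12e-12). TR48000|c0_g1 had 3.05, 4.36 and 5.59 CPM in females and 23.7, 29.1 and 31.0 CPM in males, also without overlap (-3.02, SE 0.128, edgeR adjusted p = 1.04e-09). In heads and thoraces the same genes differed by -0.89 and -0.45 on the log2 scale. For 65 of the 74 genes the abdomen showed the more negative difference, although the difference between body parts was not tested. In all, 60 genes were called lower in females in both body parts. Neither of these counts was made over all genes, so neither can be read as particular to the genes chosen here.

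Another 2 genes were called in opposite directions, a count that was also not made over all genes. TR52514|c0_g1 had a median of 570 CPM in female heads and thoraces (456 to 652) and 1538 CPM in male ones (1257 to 1655), but 3.82 CPM in female abdomens (2.29 to 4.97) and 1.42 CPM in male ones (0.890 to 1.69). The sexes did not overlap in either body part, with males above females in heads and thoraces (-1.43, SE 0.0973, edgeR adjusted p = 7.56e-07) and females above males in abdomens (1.08, SE 0.218, edgeR adjusted p = 0.000718). TR25596|c0_g2 had 44.3 CPM in female and 115 CPM in male heads and thoraces. In abdomens it had 204 counts over the 6 female libraries and 1 count over the 6 male libraries, of which 5 were at 0. That is a ratio of 188, with an exact 95% interval of 33.5 to 7481 that covers counting error only. A gene of the male head and thorax was thus next to undetectable in the male abdomen, while the female abdomen held a steady low level of 3.18 to 4.43 CPM.

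**Figure D2:**
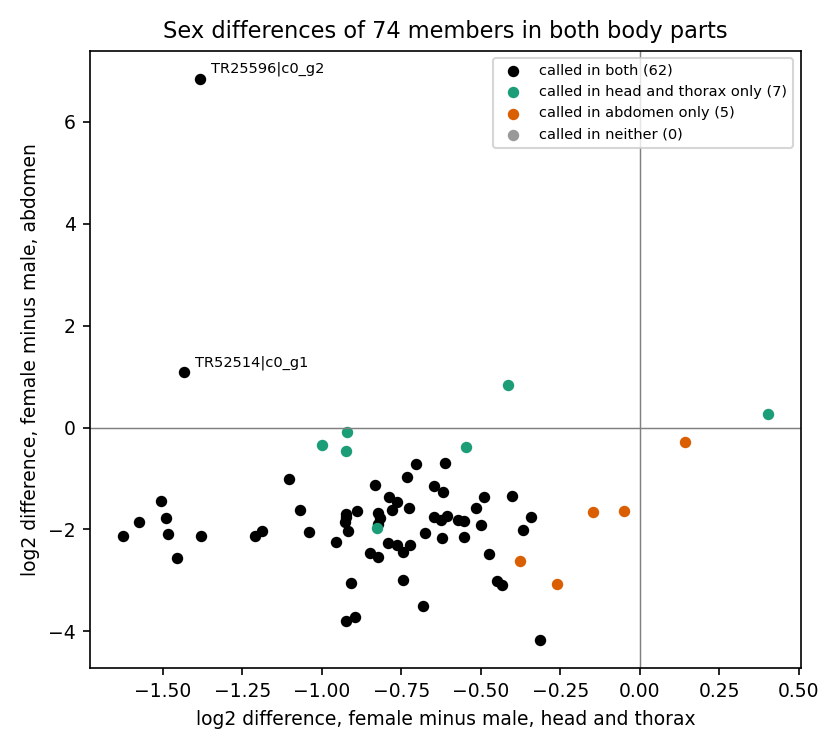
Log2 difference between the sexes (female minus male, edgeR) in heads and thoraces (horizontal) and abdomens (vertical) for the 74 genes tested in both, coloured by where the difference was called. Of these, 70 lie below 0 in the abdomen; TR25596|c0_g2 and TR52514|c0_g1 are the 2 genes called in opposite directions.

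The replicates of a group were close for most of these genes in heads and thoraces, where the within-group SD of log2 CPM had a median of 0.137, and wider in abdomens, at 0.286. TR38142|c0_g1 and TR55944|c0_g4 varied least, with SDs of 0.04 and 0.07. TR72625|c0_g1 and TR28685|c0_g1 varied most, with SDs of 0.48 and 0.43. TR72625|c0_g1 had 34.2, 37.6 and 18.3 CPM in virgin male and 21.6, 32.8 and 53.5 CPM in mated male heads and thoraces, a spread that covered every female value of 20.9 to 42.9 CPM.

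Mated male abdomen replicate 1 differed from the other male abdomens in some of the 84 genes and not in others. TR44291|c4_g1 had 164 CPM in it and 1.81 to 13.7 CPM in the other 5. TR23862|c5_g2 had 342 CPM in it and 83.3 to 108 CPM in the others, and TR53503|c3_g2 had 51.5 CPM in it against 1.35 to 7.43 CPM. For the 14 genes that were at least 3-fold higher, the excess over the median of the other 5 equalled 1.64% to 7.56% of the gene's median in male heads and thoraces, with a median of 4.32%. Those genes were picked for being high in this library. Over all 84 the excess had a median of 1.97% and was above 0 for 65, and its highest value, 8.14%, belonged to TR42692|c1_g2, which is not among the 14. Not every gene with a steep contrast between body parts was raised. Of the 18 genes with a ratio of 64 or more, 8 were among the 14 and 10 were not. TR25748|c1_g2, TR54089|c0_g1 and TR74592|c0_g1 fell short of the limits but were above the highest of the other 5. They had 1.05, 1.56 and 0.779 CPM, against 0.744, 1.35 and 0.66 CPM. The rest of the 10 were not above it. TR32548|c0_g1, at 2350 CPM in male heads and thoraces, had 2.00 CPM in this library and 1.54 to 2.11 CPM in the other 5. TR52514|c0_g1 had 0.890 CPM in it, against 1.17 to 1.69 CPM in the others. The part of carried-over head or thorax tissue in these values was not tested.

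**Figure D3:**
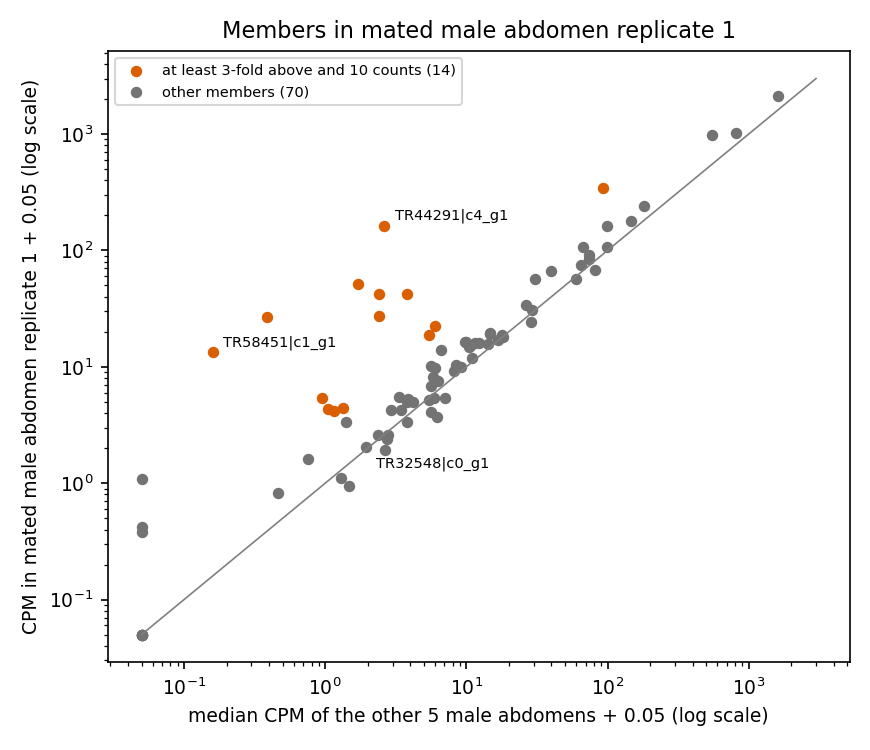
CPM of the 84 genes in mated male abdomen replicate 1 (vertical) against the median of the other 5 male abdomens (horizontal), both on log axes with 0.05 added, with the line of equality. The 14 genes at least 3-fold higher with at least 10 counts are in orange; TR32548|c0_g1 lies close to the line.

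Few of the 84 genes were called different between virgin and mated beetles, and all calls within a sex were in females. In female heads and thoraces 6 of the 84 were called (edgeR quasi-likelihood test, mated minus virgin), against 0.935% of all genes tested. Of these 4 rose, against 0.621% of all genes, and 2 fell, against 0.314%. None changed 2-fold, as 0.153% of all genes did. Scaled by library size alone, 3 of the called genes rose and 6 fell, and over all genes 57 rose and 124 fell. The median log2 change over the 84 was 0.10, against -0.01 over all genes, and was 0.03 without virgin female head and thorax replicate 3 and 0.20 without replicate 1 of that group. Without mated female head and thorax replicate 1 the count was 1, without replicate 2 it was 2 and without replicate 3 it was 3. Over all genes the same fits called 26, 34 and 36, against 122 in the main fit. An unadjusted p under 0.05 (edgeR) was reached by 31 of the 84 in female heads and thoraces. Counts at an unadjusted p, here and below, were not made over all genes. They cannot be read as particular to the 84. In male heads and thoraces none of the 84 was called by edgeR, against 0.0766% of all genes, while 6 had an unadjusted p under 0.05. DESeq2 called 1 there and limma-voom 0. The median change there was -0.08.

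TR40918|c0_g1 was called in both body parts of females. In female heads and thoraces it had 295, 339 and 292 CPM in virgin and 467, 449 and 475 CPM in mated libraries. Every mated library was above every virgin one, with a rise of 0.66 on the log2 scale (SE 0.0840, edgeR adjusted p = 0.00782), a call lost under 1 of 21 alternative settings, with adjusted p up to 0.0604. In female abdomens it had 11.6, 13.2 and 8.23 CPM in virgin and 25.5, 29.5 and 20.2 CPM in mated libraries, again without overlap (1.31, SE 0.250, edgeR adjusted p = 0.00751). In male heads and thoraces its virgin libraries had 642, 666 and 552 CPM and its mated libraries 539, 529 and 530 CPM, all lower than the virgin ones (-0.27, SE 0.0834), a difference that did not pass (edgeR adjusted p = 0.374). The difference between the sexes' mating effects in heads and thoraces was 0.92 (SE 0.118, edgeR adjusted p = 0.0207), the only one of the 84 called, against 0.107% of all genes. That call was lost under 10 of 21 alternative settings, with adjusted p up to 0.105. The abdomen interaction was 1.13 and did not pass (edgeR adjusted p = 0.0644). After mating the female level in heads and thoraces, 464 CPM ± 13.2 (SD, n = 3), was still below that of mated males, 533 CPM ± 5.71.

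TR42682|c1_g1 rose in female heads and thoraces from 25.7, 27.4 and 29.4 CPM in virgin to 45.0, 44.7 and 37.8 CPM in mated libraries (0.70, SE 0.102, edgeR adjusted p = 0.0137). TR32611|c0_g4 fell there from 99.4, 106 and 108 CPM to 52.0, 64.6 and 43.7 CPM (-0.89, SE 0.131, edgeR adjusted p = 0.0139). The groups did not overlap for either gene, while virgin and mated males did for both. Both calls were lost under 2 of 21 alternative settings.

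TR64912|c4_g1 moved in the opposite direction to TR40918|c0_g1. In female heads and thoraces it had 357, 355 and 365 CPM in virgin and 230, 258 and 225 CPM in mated libraries, without overlap (-0.52, SE 0.103, edgeR adjusted p = 0.0448). In female abdomens it had 24.9, 22.6 and 19.999 CPM in virgin and 15.04, 12.5 and 14.4 CPM in mated libraries, again without overlap (-0.56, SE 0.169, edgeR adjusted p = 0.0498). Both calls are near the threshold and were lost under 14 and 13 of 21 alternative settings. In male abdomens the values went the other way, from 28.0, 24.3 and 30.4 CPM in virgin to 56.6, 36.1 and 40.2 CPM in mated libraries, and did not overlap (0.65, SE 0.157), although this did not pass (edgeR adjusted p = 0.0558). The difference between the sexes' mating effects in abdomens was -1.21 (SE 0.230, edgeR adjusted p = 0.0117), and this call held under all 21 alternative settings. Without mated male abdomen replicate 1, the highest of the mated males, it was -1.003 (edgeR adjusted p = 0.0111).

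In abdomens 3 of the 74 tested genes were called in females (edgeR), against 14.5% of all genes tested, so the share called lay below that of the table. The median size of the log2 change, in either direction, was 0.352 over the 74 and 0.240 over all genes. These sizes include error. The median SE over the 74 was 0.264, and that over all genes was not worked out for this comparison. Whether the changes themselves were larger or smaller than over all genes was not tested. An unadjusted p under 0.05 (edgeR) was reached by 21 of the 74, a count also not made over all genes. Of the 3 called, 2 rose, against 8.18% of all genes, and 1 fell, against 6.28%. The split was 1 risen and 2 fallen when scaled by library size alone, where 672 rose and 2270 fell over all genes. Beside TR40918|c0_g1 and TR64912|c4_g1 the third was TR8981|c1_g2, with 3.16, 2.61 and 2.04 CPM in virgin and 5.21, 5.37 and 3.21 CPM in mated libraries. The groups did not overlap (0.94, SE 0.270, edgeR adjusted p = 0.0408), but the call was lost under 13 of 21 alternative settings, with adjusted p up to 0.131. Without mated male abdomen replicate 1, 8 of the genes were called, 7 of them higher. Over all genes that fit called 2261, of which 1238 were higher. The median change over the 74 was 0.33, against 0 over all genes. In male abdomens edgeR called none, against 2.77% of all genes, with 11 at an unadjusted p under 0.05 and 1 called by DESeq2 and 0 by limma-voom. For the difference between the sexes' mating effects in abdomens, 2 of the 74 were called, against 8.28% of all genes. These 2 were TR64912|c4_g1 and TR63588|c0_g2. Without mated male abdomen replicate 1, 6 were called, and over all genes 1080 were, against 1206 in the main fit.

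TR63588|c0_g2 had 2.43, 2.40 and 2.55 CPM in virgin and 3.93, 4.08 and 2.35 CPM in mated female abdomens, and 7.04, 7.66 and 8.69 CPM in virgin and 5.34, 4.09 and 5.78 CPM in mated male abdomens. The mated male values were all below the virgin male ones, while the female groups overlapped. The interaction was 1.26 (SE 0.320, edgeR adjusted p = 0.0359), lost under 13 of 21 alternative settings, among them the one without mated male abdomen replicate 1 (1.30, edgeR adjusted p = 0.0584; over the alternatives up to 0.108), and neither sex's own change passed (edgeR adjusted p = 0.107 in females and 0.155 in males).

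**Figure D4:**
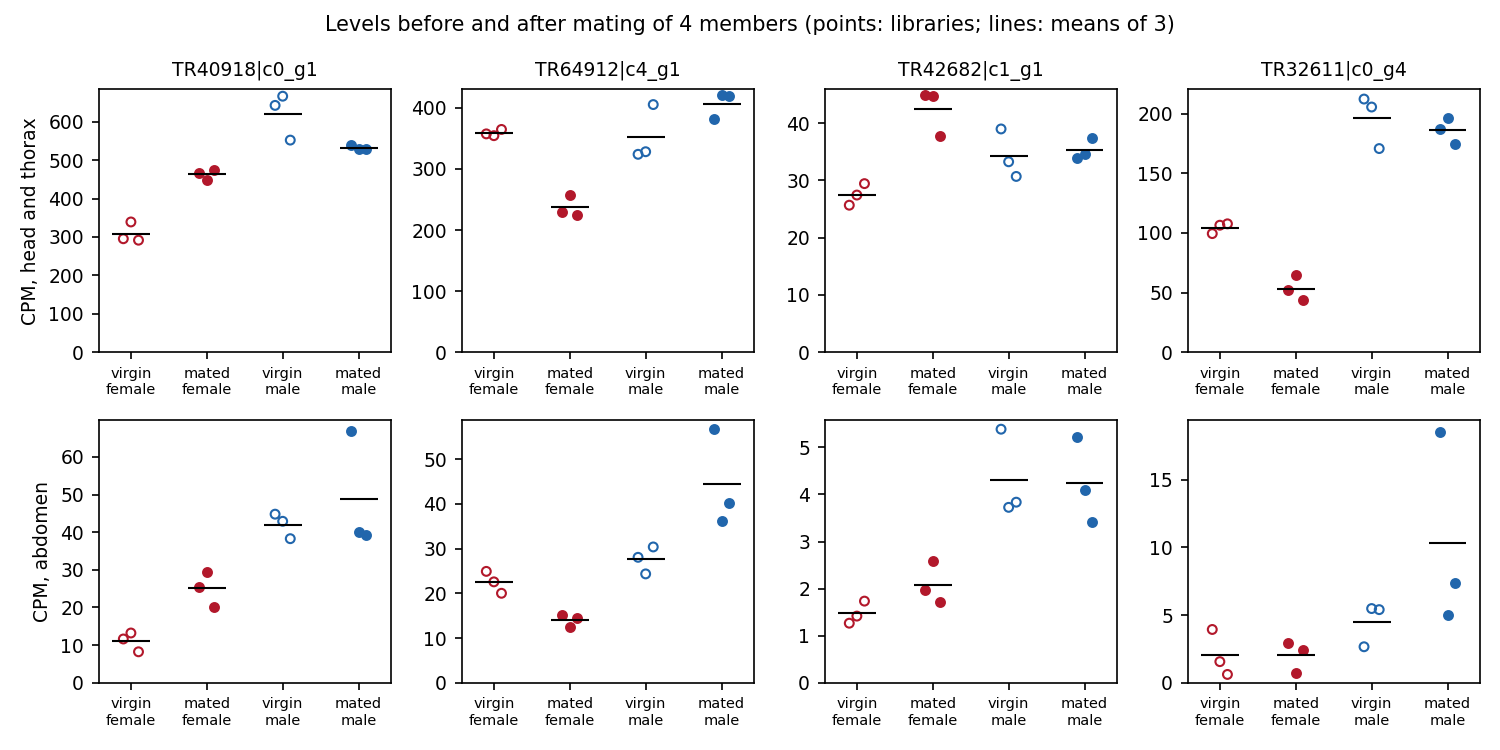
CPM of 4 genes in each library (points; open, virgin; filled, mated; red, female; blue, male), with the mean of 3 as a line, in heads and thoraces (top) and abdomens (bottom). The axes start at 0 and differ between panels; in the female heads and thoraces TR40918|c0_g1 and TR42682|c1_g1 are higher after mating and TR64912|c4_g1 and TR32611|c0_g4 lower.

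The transcript table split 45 of the 84 genes into 2 or more transcripts, while 39 had 1. In heads and thoraces no gene had a share of its dominant transcript that separated the sexes. Other transcripts were not compared over the 84, and some did separate them. In TR23862|c5_g2, i7 held 19.3% to 24.6% in female and 26.4% to 29.4% in male heads and thoraces. The reverse held for i10, with 17.5% to 24.3% in female and 12.1% to 17.1% in male ones. Between body parts 34 genes could be compared, with at least 10 counts in 3 or more abdomens of each sex, and in 6 the transcript that dominated in heads and thoraces had a higher share in every head and thorax library than in every abdomen of the same sex, in both sexes. None had a lower one. The transcript was picked by its counts in these same heads and thoraces, which favours a higher share there. The comparison was not made over all genes, so the 6 cannot be read as particular to the 84. Of the 4 genes described next TR36372|c5_g2 and TR70863|c0_g1 were chosen after these values were seen. One of the other 2, TR18210|c0_g3, has 80.2% of its gene counts missing from the transcript table, so its shares mean little. The rule for naming genes by their most abundant transcript gave TR44291|c4_g1 and TR68258|c0_g1 in their place, whose shares overlapped between body parts. TR44291|c4_g1 i1 had medians of 61.1% in female and 52.5% in male heads and thoraces and 68.8% and 65.7% in abdomens, and TR68258|c0_g1 i11 had 19.7% and 20.8% against 27.0% and 22.5%.

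For TR23862|c5_g2, transcript i4 made up a median of 29.4% of the gene's transcript counts in female and 30.3% in male heads and thoraces. In female abdomens it had no counts, and in male abdomens it had at most 0.000975% of a total of 712 to 3078 counts per library. Transcript i8 was the reverse in females, with a median of 0.129% in heads and thoraces and 32.7% in abdomens, but had a median of 1.45% in male abdomens (highest 2.44%). Mated male abdomen replicate 1, where the gene stood high, held no more than that trace of i4, and i7, at 0.516% to 2.92% in the other male abdomens, was at 21.6% in it.

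For TR36372|c5_g2, transcript i11 held a median of 86.9% in female and 86.2% in male heads and thoraces, against 5.84% in female abdomens and 20.1% in male ones, where i10 held 94.2% and 79.7%. Mated male abdomen replicate 1 was again set apart, with 58.0% of i11 against 13.1% to 34.6% in the other 5 male abdomens. For this gene the 2 tables' sums differed by 7.35%. For TR53534|c0_g2, transcript i12 held 65.8% and 67.7% in female and male heads and thoraces and 27.6% and 40.8% in abdomens. For TR70863|c0_g1, transcript i3 held 93.9% and 95.4% in heads and thoraces and 47.5% and 66.3% in abdomens. In both of these genes the female abdomens lay below the male ones. No test was made of transcript shares, since reads that fit several transcripts are divided by an estimate.

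**Figure D5:**
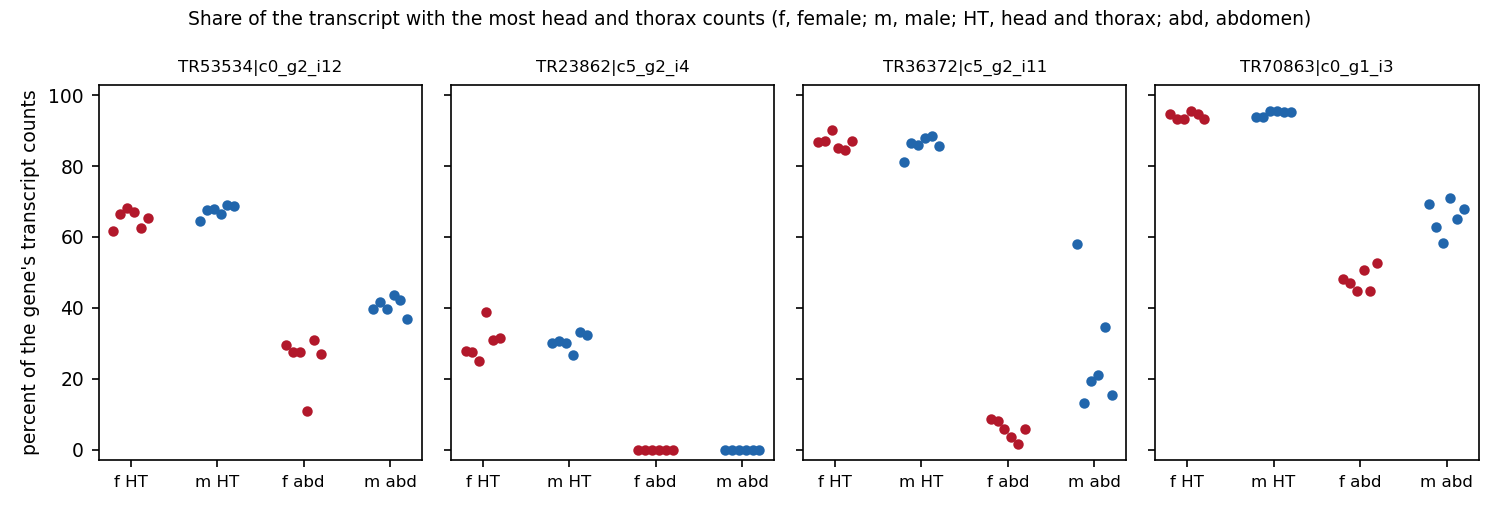
Share of 1 transcript in the transcript counts of its gene, in percent, for 4 genes and each of the 24 libraries (red, female; blue, male). In heads and thoraces the share of each of the 4 transcripts lies above all abdomens of the same sex, and TR23862|c5_g2 i4 has next to no counts in abdomens.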

How the data were processed

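The authors deposited 1 table of genes and 1 of transcripts with estimated counts for 24 libraries; the values are not all whole and are not normalized. Per the labels' protocols the libraries came from a stranded mRNA kit and were sequenced on 2 lanes each. Per the submitters' processing notes, Bowtie 0.12.6 was used, with Trimmomatic 0.3, cutadapt 1.2.1 and FastQC 0.11.2. No source used here names the counting tool, the reference or the use of strand.

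Counts were rounded and fitted with edgeR 4.0.16 in R 4.3.3 (TMM scaling, low counts filtered by group, robust quasi-likelihood test, 1 mean per group), with the 12 libraries of a body part together, and p-values were adjusted by Benjamini-Hochberg over all genes tested, at 0.05. The SE is the size of the log2 difference divided by the square root of F. The scripts were tested on simulated data. DESeq2 1.42.0, limma 3.58.1 (limma-voom), other scalings, filters, a replicate block, a fit of all 24 libraries and each library left out were tried as alternatives. Library totals limit a value near 1 CPM to about 10 counts.

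Genes named are the 6 most abundant, the 2 with the largest and the 2 with the smallest ratio, the 2 nearest each limit on either side, the 2 most and 2 least variable in heads and thoraces, up to 4 abundant ones with a transcript change and, in each comparison, up to 2 called genes in each direction with at least 3 counts in every library and no overlap (for interactions, no overlap was asked). The genes and lists were chosen with earlier results of these data known. No sequence is shown, as no reference was used here.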

Additional observations from a re-analysis of the deposited data

Results flagged for a closer look

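Across the 84 genes 3 differences between the sexes' mating effects (females minus males, edgeR) passed the adjusted threshold. TR40918|c0_g1 had a difference of 0.92 in heads and thoraces, from a rise in females and lower values in mated than in virgin males. TR64912|c4_g1 had a difference of -1.21 in abdomens, from a fall in females and higher values in mated than in virgin males. TR63588|c0_g2 had a difference of 1.26 in abdomens, where neither sex's own change passed.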

How the results depend on the processing

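The rule took in 195 genes at a ratio of at least 4 and 42 at a ratio of at least 16; other settings of it gave 61 to 122, and leaving out 1 library gave 81 to 86. The 82 genes chosen on virgin libraries were all called higher in the mated heads and thoraces whichever library was left out (82 to 82), and the calls between the sexes stayed near their value (78 to 80 in heads and thoraces and 65 to 69 in abdomens when 1 library was left out). No named gene's difference changed sign. With library size alone the called genes turned from mostly risen to mostly fallen after mating. In female heads and thoraces 4 risen and 2 fallen became 3 and 6, and over all genes 81 and 41 became 57 and 124. In female abdomens 2 and 1 became 1 and 2, and over all genes 1191 and 915 became 672 and 2270. Counts of called members under mating were less steady. In female heads and thoraces edgeR called 6, DESeq2 16, the fit of all 24 libraries 2 and the replicate block 3, with 1 to 6 when 1 library was left out. Over all genes the same 4 settings called 122, 503, 281 and 36. In male heads and thoraces DESeq2 called 1, and 0 to 0 were called when 1 library was left out. In female abdomens 1 was called with no low-count filter, 1 by limma-voom, 6 by DESeq2 and 5 when all 24 libraries were fitted, with 1 to 8 when 1 library was left out. Over all genes these settings called 1590, 2744, 3259 and 1673, against 2106 in the main setting. In male abdomens DESeq2, the fit of all 24 libraries and the replicate block each called 1, with 0 to 1 when 1 library was left out. For the difference between the sexes' mating effects, heads and thoraces had 2 with library size alone, 7 by DESeq2, 0 in the fit of all 24 libraries, 0 with the replicate block and 0 to 1 with 1 library left out, while abdomens had 1 with library size alone, 1 with no low-count filter, 5 by DESeq2, 6 in the fit of all 24 libraries and 1 to 6 with 1 library left out. Over all genes DESeq2 also called more of these differences, 267 against 14 in heads and thoraces and 1790 against 1206 in abdomens. The cause of these shifts was not tested. The replicate numbers showed no pairing of the libraries over all genes. Deviations of same-numbered libraries correlated between -0.0769 and 0.105, and 1 of 18 pairs in heads and thoraces was above 0.1. A link that touches few genes would not show in this check. Near 1 CPM a value rests on about 10 counts, which limits the abdomen values of the scarcest genes.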

Other observations

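TR10887|c0_g1, TR28685|c0_g1 and TR32557|c0_g1, noticed after their values were seen, shared 2 libraries with unusual values. In virgin female abdomen replicate 1 they had 4.54, 4.57 and 2.53 CPM, while no other female abdomen exceeded 0.962 CPM for any of them. In mated female head and thorax replicate 3 they had 79.2, 52.7 and 36.2 CPM, while the other mated female heads and thoraces had 16.7 to 43.9 CPM. For all 3 genes every mated female head and thorax was above every virgin one, with log2 changes of 1.32, 0.94 and 1.36 that did not pass (edgeR adjusted p = 0.122, 0.334 and 0.118).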
